A study of Mus musculus with 191 samples.

Results

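Gene expression in the nucleus accumbens (NAC) was compared with that in the prefrontal cortex (PFC) of control mice. The comparison used 48 of the 191 arrays of the series, 24 from NAC and 24 from PFC, each region with 8 arrays at each of 0, 8 and 120 h after the last chamber session. These arrays were all the control columns of the non-normalized tables of both regions. The numbers in the column names recur in both tables, and each number was taken as 1 mouse. All mice were male C57BL/6J, 10 to 12 weeks old. Every control mouse received saline and pyrazole, an inhibitor of alcohol dehydrogenase given at 1 mmol/kg, before each 16-hour period in the inhalation chamber. The chamber held air, and the sessions ran for 4 days in each of 4 cycles. Control mice were therefore not untreated, since handling, injection, pyrazole and confinement were shared by all of them. The other 48 NAC and PFC arrays came from mice that received ethanol with pyrazole and breathed ethanol vapor, and they served as a separate set of animals in which to look at the same regional differences.

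The NAC is the ventral part of the striatum. Most of its neurons are GABAergic medium spiny projection neurons that carry D1 or D2 dopamine receptors, and a small number of cholinergic and GABAergic interneurons lie among them. The PFC is a layered cortex in which glutamatergic pyramidal neurons predominate and inhibitory interneurons form the minority. Tissue was obtained as micropunches from 300 µm sections, with 6 punches for NAC and 5 to 8 for PFC, so each array measured RNA of mixed cells. Fewer cells of a type and less RNA per cell cannot be told apart in such samples.

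RNA was hybridized to Illumina MouseRef-8 v2 BeadChips, on which each probe reports the brightness of 1 transcript sequence. The median raw intensity was 90.3 to 109.7 on NAC arrays and 99.8 to 123.3 on PFC arrays. The number of detected probes was 13432 to 14463 on NAC arrays and 13577 to 14659 on PFC arrays. A total of 13420 probes were detected on more than 80% of the arrays of at least 1 region. Of these, 12567 had 1 gene symbol, which gave 9187 genes when the brightest probe stood for each gene. Levels are quantile-normalised log2 intensities, without background subtraction, so differences of weakly expressed genes are understated. Region cannot be told apart from anything else that differed between the NAC and PFC preparations, such as the punch, the RNA extraction and the table in which the arrays were deposited.

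The regions differed at most of the probes tested. At an adjusted p of 0.05, 11169 probes passed (83.2% of those tested), with 6220 higher in NAC (46.3%) and 4949 lower in NAC (36.9%). Most of these differences were small, with a median size of 0.20 on the log2 scale among the probes that passed. A difference of at least 2-fold was found for 410 probes (3.06%), 182 higher in NAC (1.36%) and 228 lower in NAC (1.70%). At the level of genes, 83.6% passed in either direction. In all 3.58% differed at least 2-fold, with 147 higher in NAC (1.60%) and 182 lower (1.98%). For 2360 probes (17.6%) no NAC array overlapped any PFC array, and 394 of the 410 probes with a 2-fold difference were among them. With the background modelled and removed, the 2-fold count was 1092. With the authors' processed values, which are on a variance-stabilized scale and covered 12081 probes, the 2-fold count was 224. Of 2428 genes with several probes, 348 had probes that passed in opposite directions.

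Both regions were checked by their defining neuronal genes. Drd1 (D1 dopamine receptor), Ppp1r1b (DARPP-32, a phosphatase inhibitor of striatal projection neurons) and Slc32a1 (vesicular GABA transporter) were each detected on all 24 NAC arrays and were higher there. Slc17a7 (vesicular glutamate transporter of cortical neurons), Satb1 and Nrgn (neurogranin, a calmodulin-binding postsynaptic protein) were each detected on all 24 PFC arrays and were higher there.

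Of the 15 genes with the largest differences in favour of NAC, 12 are on the list of striatal projection neuron genes. That list holds 37 of the 9187 genes measured. It was written with earlier results of these data known, so the count is a description and not a test. Rgs9, whose striatal product speeds the switching-off of G protein signals downstream of dopamine receptors, ranged from 12.38 to 12.89 on NAC arrays with a median of 12.69, and from 7.64 to 8.19 on PFC arrays with a median of 7.93. The difference was 4.76 ± 0.035 (log2, SE, n = 24 per region), a 27-fold higher signal in NAC (adjusted p = 8.8e-61). Tac1, the precursor of substance P, ranged from 12.21 to 12.61 in NAC (median 12.47) and from 7.71 to 8.44 in PFC (median 8.03), a difference of 4.40 ± 0.040. For both genes every NAC array lay far above every PFC array. Ppp1r1b ranged from 12.23 to 12.72 in NAC (median 12.56) and from 8.31 to 9.31 in PFC (median 8.63). Its difference was 3.88 ± 0.039, and its other probes gave 1.18 and 2.12.

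The dopamine receptors followed the same order. Drd1 ranged from 10.01 to 10.73 in NAC (median 10.43) and from 6.96 to 7.62 in PFC (median 7.26), a difference of 3.20 ± 0.045 (adjusted p = 1.8e-48). Drd2, the D2 receptor of striatopallidal neurons, ranged from 8.75 to 9.27 in NAC (median 9.01) and from 6.52 to 6.73 in PFC (median 6.60). It was detected on 24 NAC arrays and 2 PFC arrays, and the difference was 2.40 ± 0.031. Isl1, a transcription factor of D1 projection neurons and striatal cholinergic neurons, ranged from 9.21 to 9.82 in NAC (median 9.60) and was not detected on any PFC array. Against the lowest detected signal of the PFC arrays it was at least 7.54-fold higher in NAC, and its PFC values are background.

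Among the 15 genes with the largest positive differences, 3 encode neuropeptide precursors. Besides Tac1, these were Cartpt (cocaine- and amphetamine-regulated transcript), which ranged from 10.12 to 11.29 in NAC (median 10.95) against 7.06 to 7.64 in PFC (median 7.21), and Pdyn (prodynorphin), which ranged from 12.51 to 12.94 in NAC (median 12.80) against 9.35 to 9.90 in PFC (median 9.68). Their differences were 3.63 ± 0.049 and 3.11 ± 0.031. Others act in second messenger signalling: Gng7, a G protein γ subunit coupled to striatal dopamine and adenosine receptors, was 3.43 ± 0.027 higher in NAC (1.11 at its other probe), and Pde1b, a calmodulin-dependent phosphodiesterase, was 2.60 ± 0.029 higher. Rarb (retinoic acid receptor β) was 2.96 ± 0.031 higher, Scn4b (a sodium channel β subunit) 3.02 ± 0.049, and Ido1 (a tryptophan-degrading dioxygenase) 3.40 ± 0.032. The remaining members of the group were Strip2, Rem2 and Syndig1l, with differences of 2.74, 2.74 and 2.73. The other probes of Rarb gave 2.60 and 0.71. All 15 had separate ranges in NAC and PFC.

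Of the 15 genes with the largest differences in favour of PFC, 5 are on the list of cortical excitatory neuron genes, namely Nrn1, Cck, Slc17a7, Mef2c and Stx1a. That list holds 41 of the 9187 genes measured and was likewise written with earlier results of these data known. Nrn1 (neuritin, an activity-regulated protein that promotes neurite growth) ranged from 6.88 to 9.08 on NAC arrays with a median of 7.49, and from 11.41 to 11.90 on PFC arrays with a median of 11.73. The difference was -4.05 ± 0.12 (log2, SE, n = 24 per region), which is a 16.5-fold higher signal in PFC (adjusted p = 3.6e-34). Cck (the cholecystokinin precursor) ranged from 7.10 to 10.04 in NAC (median 8.16) and from 11.33 to 11.87 in PFC (median 11.62), a difference of -3.46 ± 0.18. Slc17a7 ranged from 6.60 to 9.78 in NAC (median 7.88) and from 10.65 to 11.10 in PFC (median 10.87), a difference of -3.06 ± 0.18. No NAC array reached the lowest PFC array for any of these 3 genes, although the NAC values were far more spread out than the PFC values.

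Myl4, a myosin light chain of muscle, ranged from 6.80 to 7.46 in NAC (median 7.06) and from 9.76 to 10.71 in PFC (median 10.22), a difference of -3.17 ± 0.057. Tnnc1, the slow skeletal and cardiac troponin C, ranged from 6.86 to 7.15 in NAC (median 6.97) and from 9.04 to 10.45 in PFC (median 9.52), a difference of -2.60 ± 0.055. Vip, the interneuron peptide, was lower in NAC by -2.96 ± 0.065, and the transcription factors Mef2c and Nr2f1, both involved in cortical development, by -2.57 ± 0.070 and -2.44 ± 0.054. Cpne9, Vxn, Ccdc3, Ncald (neurocalcin δ, a calcium sensor), Stx1a (syntaxin, a vesicle fusion protein) and Pdzrn3 were lower in NAC by -3.14, -2.52, -2.49, -2.46, -2.37 and -2.29. The other probe of Pdzrn3 gave -0.34. Ptgds, the prostaglandin D synthase made in meninges, choroid plexus and oligodendrocytes, was the only one of these 15 genes whose ranges overlapped. It spanned 8.64 to 11.23 in NAC (median 9.14) and 11.05 to 12.50 in PFC (median 11.77), a difference of -2.53 ± 0.11, and the overlap came from the NAC array of animal 18.

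**Figure D1:**
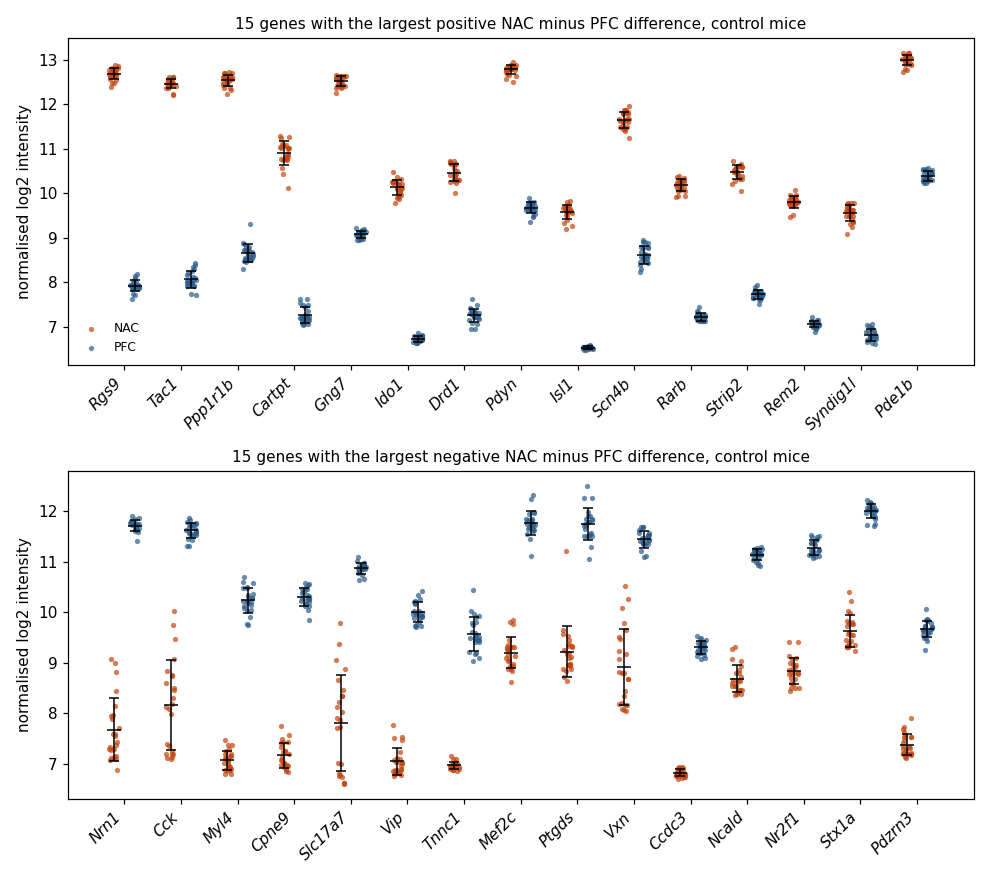
Normalised log2 intensity (y axis) of the 15 genes with the largest positive (upper panel) and the 15 with the largest negative (lower panel) NAC minus PFC difference. Each point is 1 array, NAC on the left and PFC on the right of each gene, 24 per region, with the mean and SD in black; NAC arrays spread widely for Slc17a7, Cck, Vxn and Nrn1.

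The promoters of the leading genes are shown because these genes mark the ends of the regional contrast. The sequences are the 250 bases before the annotated start, from RefSeq on GRCm38.p6, for 2 leading genes in each direction that had exactly 1 promoter entry. Of the 9187 genes measured, 7497 had an entry and 5856 had exactly 1. Letters searched on both strands were TATAAA (the TATA box), TGACGTCA (the cAMP response element, which reads the same on both strands), GGGCGG (the GC box), CAGATG (an E box) and CCAAT (the CCAAT box), none of which contains another. Matches are in capitals, as they read on the gene's strand. The first pair is higher in NAC and the second pair lower.
Rgs9, chr11:109298182-109298431, minus strand: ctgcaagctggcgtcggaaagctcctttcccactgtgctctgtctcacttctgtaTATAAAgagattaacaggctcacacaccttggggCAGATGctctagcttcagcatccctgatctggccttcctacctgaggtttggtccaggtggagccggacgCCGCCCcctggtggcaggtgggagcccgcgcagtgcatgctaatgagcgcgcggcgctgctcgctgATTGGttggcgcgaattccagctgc
Tac1, chr6:7554811-7555060, plus strand: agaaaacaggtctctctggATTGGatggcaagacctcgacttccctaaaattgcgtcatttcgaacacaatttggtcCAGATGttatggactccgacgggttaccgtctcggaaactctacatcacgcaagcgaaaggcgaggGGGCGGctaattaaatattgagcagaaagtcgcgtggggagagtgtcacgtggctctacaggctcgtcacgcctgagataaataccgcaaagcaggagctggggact
Cck, chr9:121495695-121495944, minus strand: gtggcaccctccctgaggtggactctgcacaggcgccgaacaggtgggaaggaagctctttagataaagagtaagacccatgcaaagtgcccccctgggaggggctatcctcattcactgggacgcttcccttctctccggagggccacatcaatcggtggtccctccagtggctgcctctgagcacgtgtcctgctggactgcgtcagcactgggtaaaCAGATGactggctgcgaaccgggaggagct
Myl4, chr11:104550413-104550662, plus strand: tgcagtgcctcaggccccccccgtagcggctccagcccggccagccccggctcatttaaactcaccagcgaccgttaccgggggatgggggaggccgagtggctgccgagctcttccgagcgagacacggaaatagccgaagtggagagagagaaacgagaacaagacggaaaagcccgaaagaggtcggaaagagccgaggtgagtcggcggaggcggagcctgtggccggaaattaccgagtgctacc
Rgs9 held a match to the TATA box, the E box, the GC box and the CCAAT box, Tac1 to the last 3 of these, Cck to the E box alone, and Myl4 to none. Over all 5856 promoters the E box was found in 9.41%, against 20.3% of the 79 promoters of genes 2-fold higher in NAC and 14.1% of the 99 promoters of genes 2-fold lower. The GC box was found in 51.9% of the promoters of genes higher in NAC and 62.6% of those lower, with 61.5% over all promoters. For the TATA box these shares were 8.86%, 7.07% and 6.3%. These matches describe letters in a window and were not tested.

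Gene lists of cell types and pathways, written with earlier results of these data known, were then counted. Among all 9187 genes, 46.3% passed as higher in NAC, 37.4% as lower, and the median difference was 0.026. Of the 37 measured genes of striatal projection neurons, 36 were higher in NAC and none lower, 27 of them at least 2-fold, with a median of 1.76. Besides the leaders these included Pde10a (the dual phosphodiesterase of medium spiny neurons, 1.92 ± 0.040), Gpr6 (an orphan receptor of striatopallidal neurons, 1.81 ± 0.029) and the transcription factors Bcl11b (1.57 ± 0.039), Foxp2 (1.13 ± 0.029) and Foxp1 (1.08 ± 0.033). Ebf1, a transcription factor of developing striatonigral neurons, did not pass (0.037 ± 0.021, adjusted p = 0.10). It ranged from 6.68 to 6.95 in NAC and from 6.58 to 6.92 in PFC. These values lie near the floor of detection, so they do not show equal expression. Arpp21, a cAMP-regulated phosphoprotein, was 1.76 higher in NAC at its brightest probe and 0.65 lower at its other probe, so its direction depended on the transcript sequence measured. Of 45 listed genes, the 8 that were not measured, such as Penk and Adora2a, were not analysed here. The list's mean level was 9.47 to 9.81 on NAC arrays and 7.76 to 7.86 on PFC arrays.

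Of the 41 measured genes of cortical excitatory neurons, 32 were lower in NAC, 15 of them at least 2-fold, 8 were higher and 1 did not pass, with a median of -0.82. Nrgn was lower in NAC by -2.27 ± 0.043, with 8.24 to 8.98 in NAC (median 8.74) against 10.81 to 11.31 in PFC (median 10.98). Satb1, Fezf2 and Tbr1, transcription factors that specify cortical projection neurons, were lower by -2.13 ± 0.051, -2.09 ± 0.046 and -2.05 ± 0.086, and Neurod2 by -1.33 ± 0.041. The 8 genes that went the other way included Crym (μ-crystallin, which binds thyroid hormone, 1.48 ± 0.041), the LIM-domain regulator Lmo3 (1.39 ± 0.039) and the corepressor Tle4 (0.95 ± 0.041). Crym ranged from 11.03 to 11.85 in NAC (median 11.52) and from 9.75 to 10.14 in PFC (median 10.04). These 3 genes, used as markers of deep or limbic cortical layers, did not overlap between regions and were higher in NAC.

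**Figure D2:**
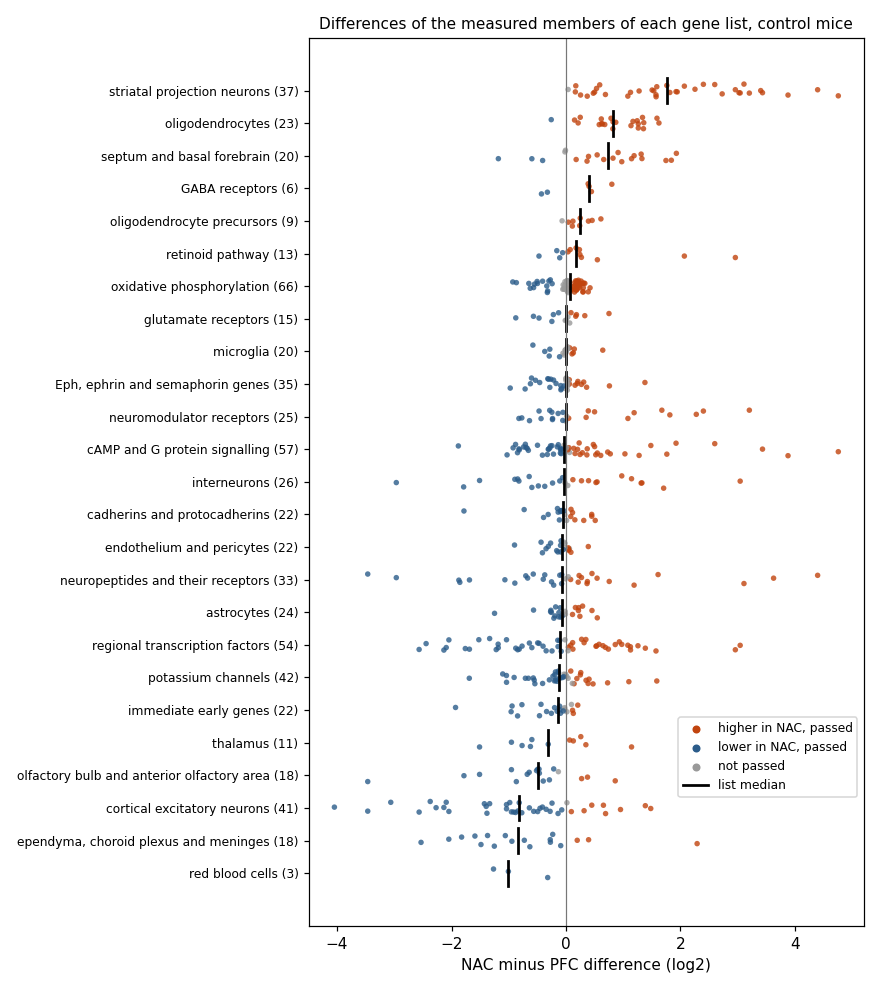
NAC minus PFC difference in log2 units (x axis) of the measured members of each gene list (rows, number of members in parentheses, ordered by list median). Each point is 1 gene, coloured by whether it passed an adjusted p of 0.05 and in which direction, and the black bar is the list median, 1.76 for striatal projection neurons and -0.82 for cortical excitatory neurons.

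Of 26 measured interneuron genes 11 were higher in NAC, 13 lower and 2 did not pass, with a median of -0.039, and 5 were higher and 3 lower by 2-fold or more. Slc32a1 ranged from 12.30 to 12.73 in NAC (median 12.62) and from 10.56 to 11.27 in PFC (median 10.87), a difference of 1.71 ± 0.037. Gad1, the GABA-synthesising enzyme, was 0.52 ± 0.053 higher in NAC with overlapping ranges. Slc32a1 and Gad1 serve GABAergic neurons at large, and most NAC neurons are GABAergic projection neurons. The highest member of the list was Isl1 (3.04), named above as a gene of D1 projection neurons too. The counts therefore do not describe interneurons alone. Among the peptide and calcium-binding markers, Vip was lower in NAC as above, Pvalb (parvalbumin) by -1.79 ± 0.082, Calb2 (calretinin) by -1.51 ± 0.14 and Cort (cortistatin) by -0.89 ± 0.067, whereas Sst (somatostatin) was 0.27 ± 0.038 higher in NAC. Npy (neuropeptide Y) was lower in NAC by -0.11 ± 0.036 (adjusted p = 0.0051). Npy averaged 10.27 ± 0.11 in NAC and 10.38 ± 0.16 in PFC (SD, n = 24 each), and it no longer passed without the 8 animals that had an array of low correlation with its region (-0.055, adjusted p = 0.23).

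Cholinergic markers were close to the detection limit in PFC. Chat, which makes acetylcholine, was detected on 24 NAC arrays and 7 PFC arrays and was 1.33 ± 0.026 higher in NAC, with 0.34 at its other probe. Slc5a7, the choline transporter, was detected on 24 NAC arrays and 4 PFC arrays (1.31 ± 0.029). Lhx8, a transcription factor of forebrain cholinergic neurons, was detected on 24 NAC arrays and 6 PFC arrays and was 0.97 ± 0.046 higher, and Gbx2 was not detected on any PFC array and was at least 2.06-fold higher in NAC. Lhx8 and Gbx2 were both highest on the NAC arrays of animals 44 (8.35 and 8.51) and 52 (8.05 and 8.17). The same arrays were the highest of NAC for Slc17a6 (9.77 and 9.18) and Pvalb (9.60 and 9.20), and their part in the Lhx8 and Gbx2 differences was not tested. Slc10a4, a transporter of cholinergic and monoaminergic vesicles, ranged from 8.19 to 8.82 in NAC (median 8.50), was not detected on any PFC array and was at least 3.57-fold higher. Sh3rf2 and Upb1 were likewise undetected in PFC and at least 2.85-fold and 2.23-fold higher. In the other direction Slc47a1 and Hkdc1 were not detected on any NAC array and were at least 3.33-fold and 3.28-fold lower in NAC, followed by Rspo2 at 1.95-fold. In all, 36 probes were undetected on every PFC array and 65 on every NAC array.

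In the cAMP and G protein list, 26 of 57 genes were higher in NAC, 28 lower and 3 did not pass, with a median of -0.035. The higher group was led by Rgs9, Ppp1r1b, Gng7, Pde1b and Pde10a, and Rgs8 followed with 1.48 ± 0.030. The adenylyl cyclases Adcy1 and Adcy2, which make cAMP, were lower in NAC by -1.88 ± 0.065 and -1.03 ± 0.028. Adcy1 ranged from 7.71 to 8.83 in NAC (median 8.08) and from 9.66 to 10.46 in PFC (median 10.08). Families of the list were split, with the phosphodiesterase Pde1a lower in NAC by -0.85 ± 0.063 where Pde1b was higher, and the G protein γ subunit Gng2 lower by -0.88 ± 0.045 where Gng7 was higher.

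Of 25 measured receptors for amines, acetylcholine and other modulators, 11 were higher in NAC and 12 lower. The 7 that were at least 2-fold higher in NAC included Drd1, Drd2, Gpr6, the orphan receptor Gpr83 (2.28 ± 0.044) and the serotonin receptor Htr1d (1.67 ± 0.030), and none was 2-fold lower. Gpr83 ranged from 10.98 to 11.90 in NAC (median 11.47) and from 8.85 to 9.40 in PFC (median 9.24). Among 33 neuropeptides and their receptors, 14 were higher and 17 lower. Scg2 (secretogranin) and Nts (neurotensin) were 1.61 ± 0.051 and 1.19 ± 0.053 higher in NAC. Nts was detected on 3 PFC arrays. Cckbr, the receptor for cholecystokinin, and Adcyap1 (PACAP precursor) were lower by -1.87 ± 0.030 and -1.85 ± 0.041, with Adcyap1 detected on 11 NAC arrays. Grp (gastrin-releasing peptide) was detected on 1 NAC array and 24 PFC arrays, so its difference of -1.69 ± 0.035 was measured against background in NAC. The peptide Cck and its receptor Cckbr were thus both lower in NAC.

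Of 15 measured glutamate receptor genes 5 were higher in NAC, 6 lower and 4 did not pass, and of 6 GABA receptor genes 4 were higher and 2 lower, with a median of 0.39. None of them reached a 2-fold difference, as 3.58% of all genes did. Grm8, a metabotropic glutamate receptor, was lower in NAC by -0.88 ± 0.030, and Gabrd, the δ subunit of extrasynaptic GABA receptors, was 0.80 ± 0.039 higher. Of 42 potassium channel genes, 12 were higher, 24 lower and 6 did not pass, with a median of -0.12. Kcnab1 and Kcnip2, auxiliary subunits of voltage-gated channels, were 1.59 ± 0.037 and 1.10 ± 0.031 higher in NAC, and the other probes of Kcnip2 gave 0.52 and 0.46. The voltage-gated subunit Kcnc4 was lower by -1.69 ± 0.067 (-0.59 at its other probe), and subunits of the large-conductance calcium-activated channel were lower, Kcnmb4 by -1.11 ± 0.040 and Kcnma1 by -1.04 ± 0.038.

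Of 13 measured genes of the retinoid pathway, 9 were higher and 4 lower, with Rarb and Rxrg (retinoid X receptor γ, 2.07 ± 0.029) the only ones past 2-fold. Rxrg ranged from 8.81 to 9.30 in NAC (median 9.0) and from 6.82 to 7.13 in PFC (median 6.94). Stra6, a retinol transporter, was 0.55 ± 0.027 higher. Among 54 regional transcription factors 24 were higher and 28 lower. Bhlhe40, a repressor linked to the circadian clock, was lower by -1.76 ± 0.047. In the list of axon guidance genes, Sema3f was 1.38 ± 0.033 higher in NAC and Sema7a was lower by -0.97 ± 0.037.

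Of 22 immediate early genes, which neurons switch on with activity, 15 were lower in NAC, 3 were higher and 4 did not pass. Bdnf, a neurotrophin, was the only one past 2-fold, at -1.93 ± 0.049, and its other probe gave -0.28. Bdnf ranged from 6.55 to 7.35 in NAC (median 6.75) and from 8.39 to 9.04 in PFC (median 8.73). Fos, Arc and Egr1 were lower by -0.96 ± 0.073, -0.85 ± 0.082 and -0.44 ± 0.056, each with overlapping ranges. Fos spanned 6.88 to 7.80 in NAC (median 7.27) and 7.41 to 8.86 in PFC (median 8.33). Of 66 oxidative phosphorylation genes, 35 were higher, 15 lower and none reached 2-fold, with a median of 0.063.

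Of 23 measured oligodendrocyte genes, 22 were higher in NAC, 10 of them at least 2-fold, with a median of 0.82. Their mean level was 9.36 to 9.86 on NAC arrays and 8.66 to 8.83 on PFC arrays. Mobp and Mag, which encode myelin proteins, were 1.62 ± 0.060 and 1.59 ± 0.051 higher. Mbp (myelin basic protein) ranged from 13.11 to 13.72 in NAC (median 13.48) and from 11.88 to 12.42 in PFC (median 12.14) at its brightest probe, a difference of 1.34 ± 0.047, while its other probes gave 1.79 and -0.14. Apod, an apolipoprotein, was the exception at -0.26 ± 0.096 (adjusted p = 0.013), but in 0 h mice alone it was 0.088 and did not pass. At 0 h the NAC array of animal 18, at 12.27, stood apart above the others for Apod. Hap1, a hypothalamic and basal forebrain gene, Dlk1 and Ecel1 led the septum and basal forebrain list, of which 15 of 20 were higher in NAC and 3 lower, with differences of 1.75 ± 0.052, 1.93 ± 0.046 and 1.84 ± 0.033. The other probes of Hap1 gave 0.53, 0.30 and 0.19, and Dlk1 was detected on 1 PFC array and Ecel1 on 2. The mean level of that list was 8.00 to 8.38 on NAC arrays and 7.46 to 7.62 on PFC arrays, and the part of neighbouring tissue in the NAC values was not tested.

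Astrocyte and microglial lists were near balance. Of 24 astrocyte genes 8 were higher and 13 lower, with a median of -0.078. Only Aqp4 (the astrocyte water channel) passed 2-fold, at -1.25 ± 0.052. Of 20 microglial genes 5 were higher, 5 lower and 10 did not pass, with a median of 0.00070. Sparc, a secreted matrix-associated protein named here after its value was seen, was the highest at 0.64 ± 0.069. P2ry12 and Cx3cr1, receptors of resting microglia, were lower in NAC by -0.58 ± 0.041 and -0.29 ± 0.052, and in 120 h mice alone Cx3cr1 did not pass (-0.14). Of 22 endothelial and pericyte genes 12 were lower and 6 higher, with the smooth muscle actin Acta2 lowest at -0.90 ± 0.065 and at -0.20, -0.21 and -0.33 for its other probes.

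Meningeal genes were lower in NAC. Of 18 measured genes of ependyma, choroid plexus and meninges, 15 were lower, 8 of them at least 2-fold, and 3 were higher. The mean level of the list was 7.23 to 7.36 on NAC arrays and 7.75 to 8.40 on PFC arrays. Slc13a4, a sulfate transporter of the leptomeninges, was lower by -2.05 ± 0.067, Dcn (decorin) by -1.59 ± 0.073 and Igf2 (insulin-like growth factor) by -1.49 ± 0.059. Clic6, a chloride channel-like protein of choroid plexus and some dopamine receptor neurons, went the other way at 2.29 ± 0.080. It ranged from 8.83 to 9.37 in NAC (median 9.05) and was 6.57 or higher in PFC, where the array of animal 42 had 8.57 and the next highest, that of animal 24, 6.87. All 3 red blood cell genes were lower in NAC, with Hbb-bt at -1.27 ± 0.090 and Hba-a1 at -1.01 ± 0.15. Most of the meningeal genes and all of the blood genes thus differed in the same direction as the genes that were higher in PFC. Whether they varied together across arrays was not tested, nor was their part in those differences.

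The arrays of a region were not uniform. Across NAC arrays the genes with the largest SD were Slc17a7 (0.96), Cck (0.90), Ccn2 (0.80) and Vxn (0.75), against a median SD of 0.083 over all genes. Slc17a7, Cck and Vxn were highest on the same 3 NAC arrays, those of animals 28, 18 and 68. On the NAC array of animal 28 they measured 9.78, 10.04 and 10.53. Slc17a7 was detected on 21 of 24 NAC arrays and was lowest, at 6.60, on the array of animal 44. Since the same genes separate the regions, the NAC arrays differed in how far they stood from PFC for cortical genes, but no NAC array reached the PFC range for these 3 genes.

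Across PFC arrays the largest SDs belonged to Cdhr1 (0.89), a cadherin-related protein of olfactory bulb output neurons, and Calb2 (0.78), against a median SD of 0.094 over all genes. Cdhr1 ranged from 7.33 to 7.83 on NAC arrays (median 7.52) and from 7.83 to 11.05 on PFC arrays (median 9.29). Cdhr1, Calb2 and Doc2g, a bulb-enriched synaptotagmin relative, were highest on the PFC arrays of animals 10, 32 and 68. Eomes, a transcription factor of bulb output neurons, was not detected on any NAC array and was detected on 22 PFC arrays. Of 18 measured genes of the olfactory bulb and anterior olfactory area, 14 were lower in NAC, and the list's mean level was 7.57 to 7.74 on NAC arrays and 7.83 to 8.97 on PFC arrays. Its lowest member was Cck (-3.46), which is also counted above among the cortical excitatory neuron genes, so the lists overlap. The part of olfactory tissue in the PFC values was not tested.

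**Figure D3:**
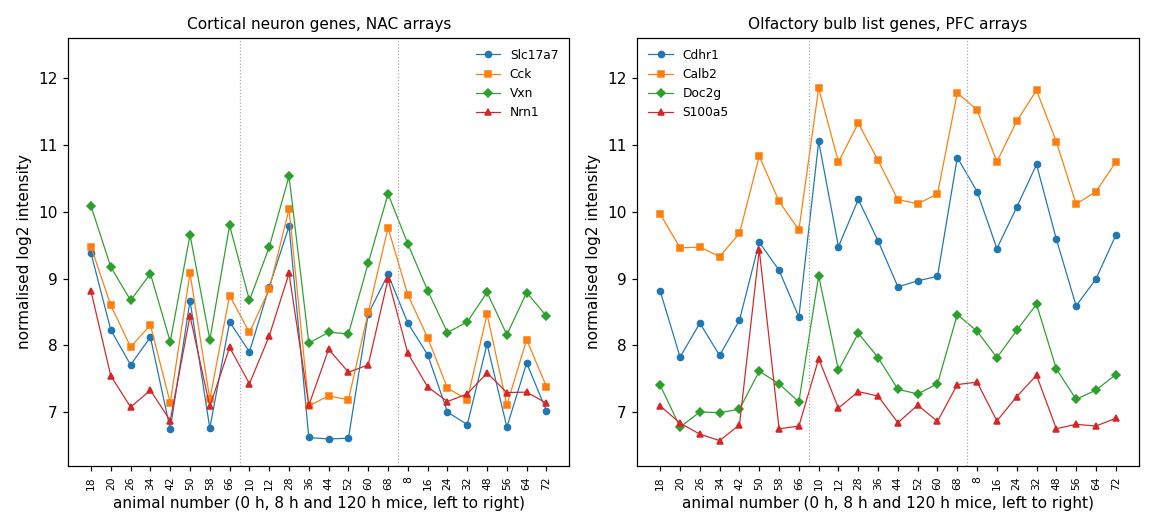
Normalised log2 intensity (y axis) of 4 cortical genes on the 24 NAC arrays (left) and 4 olfactory bulb list genes on the 24 PFC arrays (right), with animals in order of number within each time point (x axis, dotted lines between time points). The cortical genes peak together on the NAC arrays of animals 28, 68 and 18, and Cdhr1, Calb2 and Doc2g on the PFC arrays of animals 10, 32 and 68.

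The correlation of an array with the others of its region was 0.993 to 0.998 for NAC and 0.994 to 0.998 for PFC. Without the 8 animals with the lowest values, 10794 probes passed and 419 differed at least 2-fold, against 11169 and 410 with all animals.

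The regional difference was compared between time points with a region by time test. It passed for 1880 probes (14.0%) and for 1318 of the 9187 genes (14.3%), and 101 of the 410 probes with a 2-fold difference were among them. All 410 kept their sign at 0, 8 and 120 h. In 1441 of the 1880 probes the change between 0 and 120 h was larger in PFC than in NAC, with median sizes of 0.049 in NAC and 0.13 in PFC. The PFC arrays at 120 h detected 13577 to 14099 probes, against 14285 to 14659 on the PFC arrays at 0 h, and 4 of the 8 animals with an array of low correlation had that array in PFC at 120 h. The part of these arrays in the count was not tested beyond leaving the animals out. The count changed with the animals kept and with scaling: it was 292 without the 8 animals, and it was 7961 with median scaling in place of quantile normalisation. Without the 8 animals 16 remained, so the count of 292 also came from fewer arrays, and the part of that loss was not tested. The correlation was taken with the other arrays of the region at all time points together. A time point that differed would itself lower it, so leaving these animals out cannot tell poor arrays from a difference at 120 h.

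Hkdc1, a hexokinase-like enzyme, had the smallest p in this test (adjusted p = 2.5e-10). It was not detected on any NAC array and entered the test through PFC, so its NAC value is only a bound and the test describes PFC levels over time against that floor. Its PFC level was 8.39 ± 0.14 at 0 h, 8.07 ± 0.14 at 8 h and 8.75 ± 0.082 at 120 h (mean, SD, n = 8 each). Tnnc1 measured 6.92 ± 0.042, 7.01 ± 0.072 and 6.99 ± 0.059 in NAC at 0, 8 and 120 h, and 9.46 ± 0.14, 9.31 ± 0.20 and 9.96 ± 0.22 in PFC (adjusted p = 3.8e-05). Cbr3, a carbonyl reductase, measured 10.32 ± 0.082, 10.17 ± 0.18 and 10.12 ± 0.078 in NAC at 0, 8 and 120 h, and 9.0 ± 0.17, 9.04 ± 0.12 and 8.40 ± 0.11 in PFC. For each of these 3 genes the PFC arrays at 120 h did not overlap the earlier PFC arrays. Tnnc1 was detected on all 24 NAC arrays, with values near the floor of detection.

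The other 7 leading genes of this test were Pnma1, Abcb9, Tiam2, Dnajb13, Sema6b, Ephx2 and Dpf1. Their regional differences at 120 h were all below those at 0 h, by 0.19 to 0.41 on the log2 scale. Dpf1 did not pass over all time points (-0.040 ± 0.027, adjusted p = 0.17), while its other probe passed as higher in NAC (0.065). Of the 26 interneuron genes 10 passed, among them the peptide genes Npy, Cort and Sst. Npy differed by -0.060 at 0 h, 0.067 at 8 h and -0.33 at 120 h (adjusted p = 0.00019 between time points). Cort differed by -0.72, -0.64 and -1.32 (adjusted p = 0.00027), and Sst by 0.21, 0.44 and 0.17 (adjusted p = 0.033). The NAC excess of Mag was 1.89, 1.51 and 1.37 at 0, 8 and 120 h. Cdhr1 and Calb2 differed less at 0 h (-0.96 and -0.97) than at 120 h (-2.15 and -2.02), as did Doc2g (-0.42 and -1.05). For each of these genes the highest PFC array, that of animal 10, was taken at 8 h, so these values do not show a steady change with time.

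**Figure D4:**
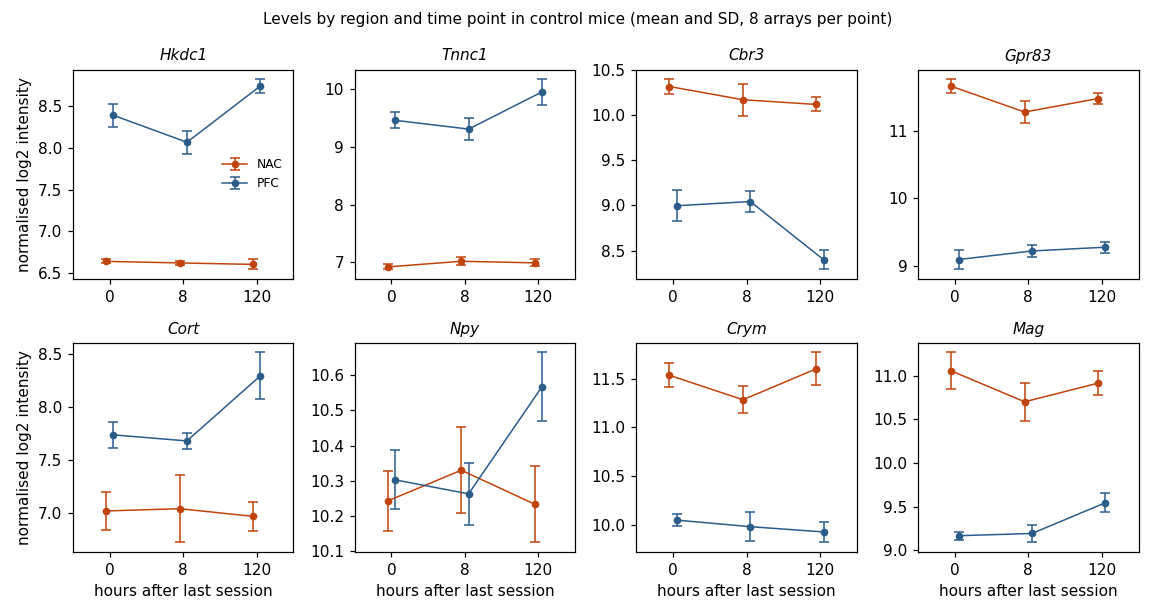
Normalised log2 intensity (y axis) of 8 genes at 0, 8 and 120 h after the last session (x axis, equally spaced) in NAC and PFC, as mean and SD of 8 arrays per point. In PFC, Hkdc1, Tnnc1, Cort, Npy and Mag are highest and Cbr3 lowest at 120 h.

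The same regional difference was measured in other animals, the mice exposed to ethanol vapor, which shared no arrays with the controls. Region was tied to the preparation of the samples in these mice too, and the probes were those kept in controls. In the ethanol vapor mice 11025 probes passed (82.2%), 6178 higher in NAC (46.0%) and 4847 lower (36.1%), and 432 differed at least 2-fold (3.22%). Of the 11169 probes that passed in controls, 10450 also passed in ethanol vapor mice, 10447 with the same sign and 3 with the opposite sign. All 410 probes with a 2-fold difference in controls passed with the same sign, and 397 again differed 2-fold. The median size of the change in the regional difference between the sets was 0.064 for these 410. Rgs9 differed by 4.65 in ethanol vapor mice and 4.76 in controls, Tac1 by 4.45 and 4.40, and Nrn1 by -4.28 and -4.05. Slc17a7 differed by -3.67 in ethanol vapor mice and -3.06 in controls, Cck by -4.06 and -3.46, and Ptgds by -2.01 and -2.53. Whether ethanol changed the regional difference was not tested here.

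**Figure D5:**
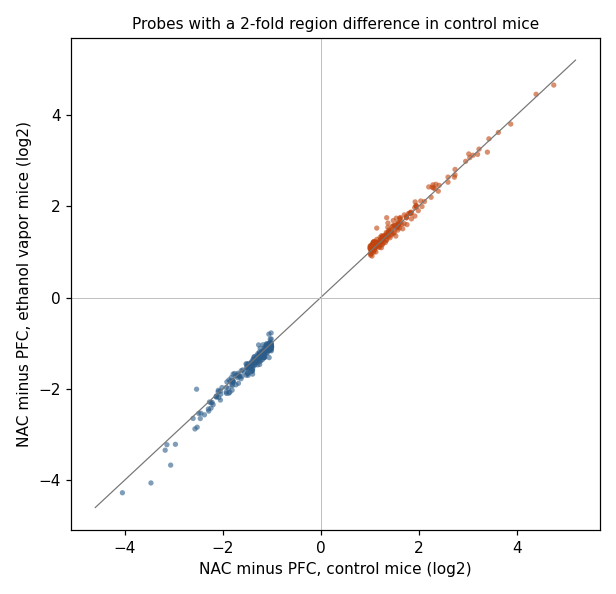
NAC minus PFC difference in control mice (x axis, log2) against that in ethanol vapor mice (y axis, log2) for the 410 probes with a 2-fold difference in controls. Each point is 1 probe, the grey diagonal marks equal differences, and all 410 points lie in the quadrants of equal sign.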

How the data were processed

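RNA from punches of NAC and PFC was hybridized as biotin-labelled cRNA to Illumina MouseRef-8 v2 arrays of 25697 probes. The deposited tables hold probe intensity values that the authors did not normalize, with a detection p-value per probe and array from the scanner software. A further deposited table of both regions holds the authors' log2 values after detection filtering, variance stabilization and quantile normalization, with outlying values left blank. Its column medians were 7.88 to 7.90 for NAC and 8.08 to 8.11 for PFC, and it was quantile normalized over both regions and used only as an alternative. The labels give punches of 2.0 mm, while the study's methods give another diameter for NAC.

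Intensities of the 48 control arrays were log2 transformed and quantile normalized together. A probe was kept if its detection p reached 0.05 on over 80% of NAC arrays or of PFC arrays. NAC minus PFC was fitted with limma 3.58.1 in R 4.3.3, with time point as covariate and animal as a random block (duplicateCorrelation, consensus correlation 0.034), and p-values were adjusted by Benjamini-Hochberg over all 13420 probes. Region by time was an F test in the same design. Treated mice were normalized and fitted apart on the same probes. Column numbers recur in both regions, and the study counts its tissues from the same animals. Deviations of same-numbered arrays correlated with a median of 0.10 (12 of 24 above 0.1), against -0.017 for different numbers (34 of 168 above 0.1). For 9 of the 24 NAC arrays the highest correlation was with the PFC array of the same number. The fit was tested on simulated data.

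A fold is a lower bound ("at least") where no array of a region detected the probe. It sets the detecting region's mean against the higher of the lowest detected signal and the probe's own signal on each array. The number of arrays limits precision. Gene symbols came from GEO's platform annotation, which can be old, read beside RefSeq gene IDs. They were at hand only for probes with processed values from the authors, and 853 of the probes kept had no such values and stayed unnamed. Genes named were the 15 largest differences each way, leading list members, the 10 smallest p of region by time and bounded probes. Genes named for variation between arrays or for running against their list were chosen after their values were seen, and all members and lists were chosen with earlier results of these data known. Alternatives covered the block, background, scaling, detection filter, array weights, the authors' values and single time points. Where labels do not say otherwise, p-values measure the spread between these samples.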

Additional observations from a re-analysis of the deposited data

Results flagged for a closer look

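Within each region and time point, the gap between the most extreme array and its nearest neighbour was compared with the range of the group of 8 arrays. Of 774 such groups for the 129 named genes, 55 held an outlying array, and chance alone gives about 1 in 20 for unselected, independent groups. Some of these genes were named because they varied widely between these same arrays, and many of the outlying values share a few arrays. The count is therefore a description and not a test against that share. Values are normalised log2 intensities.

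On the NAC array of animal 18 (0 h), Ptgds at 11.23 and Apod at 12.27 stood apart above the group. Animal 18 had Slc32a1 at 12.30, Crym at 11.24, Hba-a1 at 8.89 and Hbb-bt at 6.67 on its NAC array at 0 h, below the rest of its group. At 0 h, Rgs9 at 8.19, Ppp1r1b at 9.31, Rem2 at 7.23 and Plin4 at 8.06 on the PFC array of animal 18 lay apart above the other arrays. On the PFC array of animal 18 (0 h), Cck at 11.33, Tnnc1 at 9.17 and Kcnc4 at 10.31 stood apart below the group. Animal 26 had Gbp2 at 8.58, Igtp at 8.92, Irgm2 at 8.41 and Cd74 at 7.91 on its NAC array at 0 h, above the rest of its group. At 0 h, Igtp at 9.53 and Irgm2 at 9.18 on the PFC array of animal 26 lay apart above the other arrays. On the PFC array of animal 16 (120 h), Rarb at 7.46, Tnnc1 at 10.45, Nrgn at 11.31 and Cort at 8.77 stood apart above the group. Animal 16 had Stra6 at 6.57 on its PFC array at 120 h, below the rest of its group. At 120 h, Mef2c at 9.85, Satb1 at 8.53 and Slc13a4 at 7.06 on the NAC array of animal 8 lay apart above the other arrays. On the NAC array of animal 8 (120 h), Slc32a1 at 12.54 and Upb1 at 7.54 stood apart below the group.

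Animal 28 had Grm8 at 7.11 on its NAC array at 8 h, above the rest of its group. At 8 h, Tle4 at 9.95 on the PFC array of animal 28 lay apart above the other arrays. On the PFC array of animal 28 (8 h), Isl1 at 6.48 stood apart below the group; Isl1 was not detected on any PFC array, so this is a background value. Animal 72 had Cckbr at 9.07 and Xlr4a at 7.33 on its NAC array at 120 h, below the rest of its group. At 120 h, Xlr4a at 7.27 on the PFC array of animal 72 lay apart below the other arrays. On the PFC array of animal 66 (0 h), Nrn1 at 11.88 stood apart above the group. Animal 66 had Cort at 7.46 on its PFC array at 0 h, below the rest of its group. At 0 h, Gpr83 at 11.90 on the NAC array of animal 58 lay apart above the other arrays. On the NAC array of animal 58 (0 h), Mbp at 13.22 stood apart below the group. Animal 44 had Grp, detected on 1 NAC array in all, at 6.74 on its NAC array at 8 h, above the rest of its group. At 8 h, Arpp21 at 13.62 on the NAC array of animal 44 lay apart below the other arrays. On the NAC array of animal 12 (8 h), Scg2 at 11.98 and Irgm2 at 7.72 stood apart above the group. Animal 42 had Clic6 at 8.57 and Dlk1 (detected on 1 PFC array in all) at 6.82 on its PFC array at 0 h, above the rest of its group. At 120 h, Slc47a1 at 6.66 on the NAC array of animal 64 lay apart above the other arrays, also a background value, since no NAC array detected it. On the PFC array of animal 64 (120 h), Mobp at 8.11 stood apart above the group. Animal 60 had Slc13a4 at 6.76 on its NAC array at 8 h, below the rest of its group. At 8 h, Slc13a4 at 8.26 on the PFC array of animal 60 lay apart below the other arrays. On the NAC array of animal 10 (8 h), Hba-a1 at 9.29 stood apart below the group. Animal 10 had Hba-a1 at 10.54 on its PFC array at 8 h, below the rest of its group. At 0 h, S100a5 at 9.43 and Dnajb13 at 6.87 on the PFC array of animal 50 lay apart above the other arrays. On the PFC array of animal 36 (8 h), Rxrg at 7.08 stood apart above the group. Animal 32 had Dlk1 at 9.01 on its NAC array at 120 h, above the rest of its group.

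For 39 of the 129 named genes the NAC minus PFC difference itself differed between time points. The test was the limma F test of region by time, at an adjusted p of 0.05 or lower over all probes. Among all 9187 genes measured, 1318 passed it (14.3%). Several of the named genes, such as Hkdc1, Pnma1 and Dpf1, were named for having the smallest p in this same test. The count of 39 is therefore a description and not a test against that share. The values that follow are the difference at 120 h minus that at 0 h, on the log2 scale. It was negative for Scn4b (-0.37), Myl4 (-0.40), Cpne9 (-0.094), Tnnc1 (-0.42), Gpr83 (-0.37), Mbp (-0.31), Mag (-0.52), Neurod2 (-0.12), Adcy1 (-0.32), Calb2 (-1.05), Cort (-0.61), Npy (-0.27), Sst (-0.041), Kcnc4 (-0.049), Kcnmb4 (-0.13), Cdhr1 (-1.19), Doc2g (-0.63), Hkdc1 (-0.39), Sema3f (-0.23), Adcy2 (-0.035), Pnma1 (-0.25), Abcb9 (-0.30), Tiam2 (-0.41), Dnajb13 (-0.19), Sema6b (-0.27), Ephx2 (-0.34) and Dpf1 (-0.27). It was positive for Nr2f1 (0.032), Slc5a7 (0.21), Gbx2 (0.39), Nts (0.19), Pvalb (0.17), Crym (0.19), Arc (0.55), Cbr3 (0.40), Bhlhe40 (0.50), Sh3rf2 (0.058), Gbp2 (0.82) and Irgm2 (0.60). For genes with a small value here, such as Nr2f1 and Kcnc4, it was the 8 h difference that stood apart. The count of such probes depended on scaling and on the animals kept.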

How the results depend on the processing

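The count of probes that passed stayed within 1.5 times under every alternative tried. It was 11127 with no animal block and 11120 with the block as a fixed effect, and neither fit changed the call of any of the 129 named genes. The 2-fold count of 410 was 1092 with normexp background correction (398 higher and 694 lower in NAC) and 224 with the authors' processed values (98 higher and 126 lower). Background correction lowers the floor under weak genes by construction; for the authors' values the cause was not tested. The region by time count of 1880 was 7961 with median scaling and 292 without the 8 animals of low array correlation, a choice made after seeing the data, and the cause was not tested. Median scaling turned Dpf1 to 0.0063 and the median of the cAMP and G protein list to 0.0032. In 0 h mice alone Dpf1 was 0.043, Apod 0.088 and the transcription factor median 0.013. In 8 h mice alone Npy was 0.067, Pnma1 0.015, Sema6b 0.030, Dpf1 0.065, Xlr4a -0.057 and the neuropeptide median 0.029. In 120 h mice alone Ebf1 was -0.025, Ephx2 -0.058 and Xlr4a -0.0013. Calls of single genes were also lost with their sign kept: Dnajb13 with median scaling (-0.026), in 0 h mice (-0.019) and in 8 h mice (-0.0088); Npy (-0.060), S100a5 (-0.49), Sema6b (-0.013) and Ccn2 (-0.033) in 0 h mice; Ccn2 in 8 h mice (-0.55); Cx3cr1 in 120 h mice (-0.14); and Npy (-0.055) and Sema6b (-0.058) without the 8 animals. Dpf1 passed in 120 h mice alone (-0.23). Ebf1 passed with median scaling, array weights or 0 h mice alone. Of the 129 named genes, 29 had no value with detection required in both regions and 29 none among the authors' values. Weak genes are limited by signal over background.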

Other observations

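Gbp2, Igtp, Irgm2 and Cd74, chosen after their values were seen, were 4 of the 12 genes with the largest SD in PFC, the others being Cdhr1, Calb2, Xlr4a, Ccl21a, S100a5, Doc2g, Trh and Cyp2a5. Gbp2, an interferon-induced GTPase, spanned 6.99 to 8.58, 6.97 to 7.39 and 6.96 to 7.23 in NAC at 0, 8 and 120 h, and 7.82 to 9.55, 7.29 to 9.07 and 7.06 to 7.45 in PFC. Its regional difference was -0.76 ± 0.12 overall (log2, SE) and differed between time points (adjusted p = 0.013). Irgm2 and Igtp, immunity-related GTPases, were lower in NAC by -0.57 ± 0.099 and -0.61 ± 0.12, and the region by time test passed for Irgm2 (adjusted p = 0.029) but not for Igtp (adjusted p = 0.11). Cd74, the invariant chain of class II molecules, was lower by -1.01 ± 0.10, and H2-Aa, a class II chain, was not detected on any NAC array. Animal 26 had the highest values of Gbp2, Igtp, Irgm2 and Cd74 among NAC arrays at 0 h.

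Sgk1, a kinase induced by glucocorticoids, and Plin4, a lipid droplet protein, were among the most variable genes of NAC. Sgk1 averaged 11.64, 10.78 and 10.70 in NAC at 0, 8 and 120 h, and 10.78, 10.28 and 10.24 in PFC. Plin4 averaged 7.92, 7.28 and 6.88 in NAC, and 7.11, 6.82 and 6.72 in PFC. Both were highest at 0 h in both regions. Xlr4a varied widely among arrays of both regions, with an SD of 0.62 in NAC and 0.70 in PFC, and its regional difference did not pass (0.067 ± 0.15, adjusted p = 0.68).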
